A study of Danio rerio with 14 samples.

Results

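The H2A.Z map of zebrafish embryos exposed to TDCIPP was compared with that of solvent controls at 28988 consensus peaks, all the peaks of the comparison, out of 58842 in the 2 peak tables of the series. H2A.Z is a variant of histone H2A that chaperone complexes such as SRCAP and p400 exchange into nucleosomes, most of all around transcription start sites. In the early zebrafish embryo, nucleosomes with H2A.Z mark promoters that stay free of DNA methylation before the zygotic genome is switched on, and the chaperone Anp32e removes the variant. TDCIPP is a chlorinated organophosphate flame retardant. The long arm of zebrafish chromosome 4 is a gene-poor, repeat-rich and late-replicating stretch, and the title of the study concerns a competition for H2A.Z when repetitive elements lose their repression.

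The libraries were made by CUT&Tag, a method that tethers a transposase to an antibody and so cuts out the DNA near the bound protein. Wild-type AB/Tuebingen embryos at 6 hours after fertilization were used in both groups, with around 10000 cells per library and a polyclonal H2A.Z antibody. The TDCIPP group had 2 samples, exposed to 3.12 µM in 5 mL from the 2-cell stage at 0.75 hours, and the control group had 3 samples in 0.1% DMSO. Eggs were placed around 50 per well, and the labels do not say whether the samples of a group came from separate wells or spawnings, so the deposited p-values measure the spread between these samples, which may be technical. Whole embryos were taken, so fewer cells carrying H2A.Z at a peak and less H2A.Z per cell cannot be told apart.

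For each peak the authors deposited 1 level per group, on the log2 scale of normalised reads, and no value of a single sample. The change is the TDCIPP level minus the DMSO level. The departure is that change minus the median change of all peaks, and a peak is called departing where the departure is at least 1, in either direction, which 1 unit of log2 makes a factor of 2. Departures carry no replicate error and no test. The test available is the deposited FDR, which is relative to a change of 0, and a peak is called higher or lower where it is under 0.05.

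The deposited level was lower in TDCIPP at most peaks, and by at least 1 from the median change more peaks departed upward than downward. The median change was -0.53, with an interquartile range of -1 to 0.09, and 8080 peaks had a change above 0. How the libraries were scaled to each other is not given in the sources used here. The sign and size of the median change depend on that scaling, so a loss of H2A.Z across the genome cannot be read from them. The spread was skewed: the 1st and 99th percentiles of the departure were -1.86 and 2.66. At least 1 above the median lay 4614 peaks (15.9%), and at least 1 below it 2123 peaks (7.32%). Centred on the log2 ratio of summed levels, -0.36, the counts were 3651 and 3281, so the imbalance depended on the centre. The departing-up peaks took 9.27% of the DMSO signal summed over all peaks and 25.1% of the TDCIPP signal, while the departing-down peaks took 7.72% and 2.76%. The direction of both shifts follows from how these peaks were chosen.

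Most departing peaks were not called, more so above the median than below it. The deposited test counts from a change of 0, and the median change was -0.53. A departure of 1 is therefore a change of 0.47 above the median and of -1.53 below it. The shares called above and below are thus not on equal terms. By the authors' deposited table, 352 peaks were higher (1.21%) and 1685 lower (5.81%). These counts too depend on how the libraries were scaled to each other. All 352 higher calls departed upward, 7.63% of the departing-up peaks, with a median departure of 2.25. Of the lower calls 863 departed downward, 40.7% of the departing-down peaks, and 822 lay within 1 of the median. The latter were strong peaks, with a median DMSO level of 5.62 and a median change of -1.32. The remaining 4262 departing-up and 1260 departing-down peaks were not called. They were weak, with medians of 2.99 and 2.83 for the mean level over the 5 samples, against 3.52 over all peaks. Their median DMSO levels were 2.48 and 3.33 against 3.65, but the DMSO level enters the choice of departing peaks.

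Peaks with a low mean level over both groups were never called. By the authors' deposited table, 11807 peaks (40.7%) had an FDR of exactly 1, among them 1116 with an unadjusted p under 0.05 and 1 with a p as small as 1.49e-05. Every peak with an FDR under 1 had a mean level over the 5 samples of at least 3.26, and those with an FDR of 1 had at most 4.21. The 2548 departing-up and 976 departing-down peaks with an FDR of 1 included 384 and 669 with an unadjusted p under 0.05. Shares of calls are therefore also given over the 17181 peaks with an FDR under 1, of which 2.05% were higher and 9.81% lower. The mean level includes the TDCIPP level, so a peak weak in DMSO can be among them through a high TDCIPP level. Shares of higher calls over these peaks may be raised by that.

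The peaks next to the threshold show how little separates the classes. On chromosome 25 a peak from 18802160 to 18803114 had levels of 7.08 in TDCIPP and 6.61 in DMSO and a departure of 1. On chromosome 22 a peak from 26373970 to 26375307 had levels of 6.25 and 5.79 and a departure of 0.99. Below the median, a peak on chromosome 18 from 41232465 to 41234526 had levels of 4.92 and 6.45 and a departure of -1, while one on chromosome 13 from 25548575 to 25549991 had levels of 4.73 and 6.25 and a departure of -0.99. The authors' deposited table gave FDRs of 0.301 and 0.357 to the first pair and 0.00196 and 0.0018 to the second, since a change counts from 0 there. Coordinates are those of the tables, with GRCz11 as the build per the submitters' processing notes.

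By DMSO level the departure ran from far above the median at weak peaks to below it at strong ones, and turned again at the top. Peaks with a DMSO level under 1 had a median departure of 2.08 (494 peaks), those from 1 to under 2 of 1.02 (2166 peaks), and those from 2 to 3 of 0.37 (6028 peaks). Of the 494 weakest, 84.0% departed upward and 0 downward, and so low a level leaves little room to fall. In which group a consensus peak was found is not given, so such peaks may be in the set only through TDCIPP. Their departure cannot be read apart from these limits. From 4 to 5 the median was -0.22, from 5 to 6 it was -0.35, and from 6 to 7 it was -0.40 over 614 peaks. The 74 peaks from 7 to 8 and the 39 of 8 and over lay above the median again, at 0.64 and 0.65, which corresponds to changes of 0.12 for both. The step from 7 to 8 was mixed, with an interquartile range of -0.49 to 0.85 and 23 of 74 peaks called lower in the authors' deposited table. In the step of 8 and over the range was 0.54 to 0.74, and 2 of 39 peaks were called lower.

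The DMSO level enters the change with a minus sign, so an error in it moves both. Over steps of the mean level of the 5 samples the same shape was flatter, with median departures of 0.49 under 2, 0.21 from 2 to 3, 0.00 from 3 to 4, -0.17 from 4 to 5 and -0.25 from 5 to 6. Over steps of the TDCIPP level, which enters with a plus sign, the order turned round, from -1.19 under 1 to 0.92 between 6 and 7. The direction of the relation thus depended on which group ranked the peaks. By TDCIPP level the median departure was above 0 from level 3 on, reached 1.63 between 7 and 8 and was 0.81 at 8 and over. Peaks of 8 and over thus lay above the median in each ranking, at 0.65 by DMSO level and 0.66 by mean level, but a return from below occurred only in the rankings by DMSO and mean level.

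**Figure D1:**
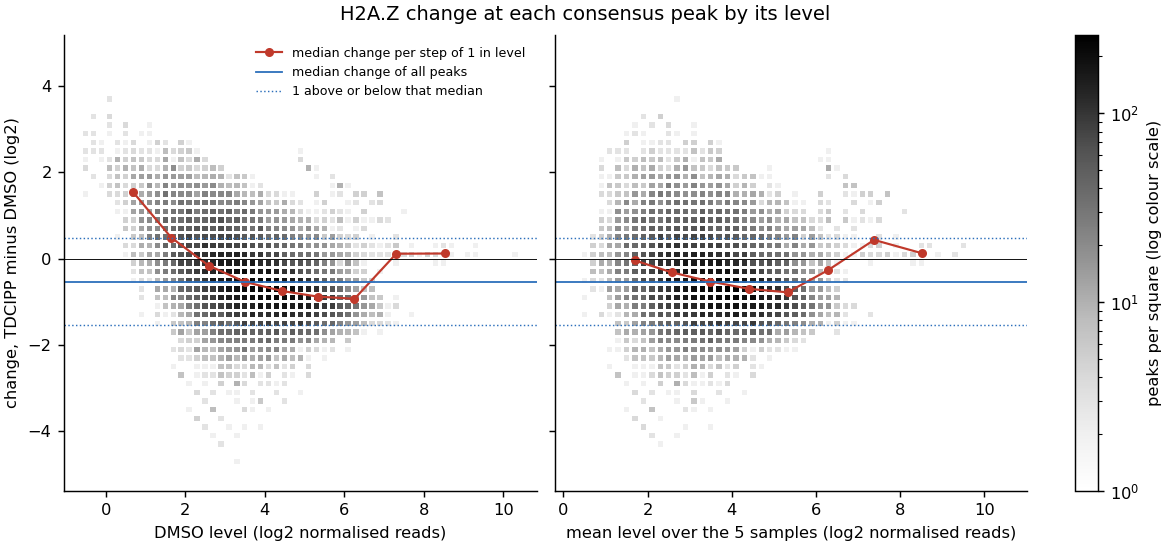
Change in H2A.Z (TDCIPP minus DMSO, log2) at each of 28988 peaks against the DMSO level (left) and the mean level over the 5 samples (right), in log2 normalised reads, with darker squares holding more peaks. Red points are the median change per step of 1 in level, which falls from 1.55 to -0.93 between the weakest DMSO step and the step from 6 to 7 and returns to 0.12 at 8 and over, while the blue lines mark the overall median of -0.53 and 1 to either side.

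Some peaks at the high end lay in runs of neighbouring higher calls, described further on. The runs were chosen for peaks that rose, so a higher departure inside them than outside follows from that choice. Between mean levels of 7 and 8, 36 peaks inside such runs had a median departure of 1.92, and 60 peaks outside had 0.72. Between 6 and 7, the 87 peaks inside lay at 2.13 and the 335 outside at -0.11. Above 8 only 3 of 42 peaks were in a run, 4 departed by at least 1, and the interquartile range was 0.57 to 0.78, the narrowest of any step of mean level. These 42 peaks were broad, with a median width of 2518.5 bp against 768 bp for all peaks, and took 3.55% of the DMSO signal and 5.09% of the TDCIPP signal.

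Over all levels together, narrow peaks lay above the median and broad ones below it, but for the broadest class the sign turned, to 0.015, when centred within quintiles of mean level. The 5464 peaks under 500 bp had a median departure of 0.37, and 26.9% of them departed upward. The 14877 peaks of 500 bp to under 1 kb had -0.01 and 14.0%, the 8009 of 1 to under 2 kb had -0.14 and 12.4%, and the 638 of 2 kb and more had -0.17 and 9.87%. Departing-down shares did not follow this order, at 6.61%, 7.56%, 7.60% and 4.55%. Lower calls did, from 0.293% of the narrowest class to 20.5% of the broadest in the authors' deposited table, against 5.81% of all peaks. Higher calls made up between 0.988% and 1.57% of all peaks in each class. Over the peaks with an FDR under 1, lower calls made up 1.62%, 6.28%, 14.3% and 20.8%, from the narrowest class to the broadest. These shares are not matched on level. In the strongest quintile of mean level, lower calls made up 0, 10.9%, 21.8% and 23.9% of the classes. The quintile below it had 2.47%, 6.40%, 8.76% and 0 of 68 peaks. By DMSO level the strongest quintile had 4.26%, 15.8%, 24.7% and 24.9%. The next had 5.18%, 6.86%, 6.52% and 0 of 82 peaks, so the order did not hold at every level. Most narrow peaks were too weak to be called. By the authors' deposited table, 74 of the 985 peaks under 500 bp with an FDR under 1 were higher (7.51%), against 1.59% to 1.73% of the wider classes. A narrow peak weak in DMSO can be among those 985 through a high TDCIPP level. Of the 985, 33.1% departed upward and 3.35% downward, beside 26.9% and 6.61% of all narrow peaks, so this subset already leaned upward.

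Width and level rise together, from a median DMSO level of 2.5 in the narrowest class to 5.63 in the broadest. In the 4 weaker quintiles of DMSO level the peaks of 1 to under 2 kb lay above the narrower ones, and those of 2 kb and more lay above the median. In the weakest quintile of DMSO level, the median departure was 0.66 for peaks under 500 bp, 0.80 for 500 bp to under 1 kb and 1.29 for 1 to under 2 kb, and in the middle quintile the values were -0.04, -0.10 and 0.12, with 0.60 for 22 peaks of 2 kb and more. Within quintiles of mean level, among classes of at least 20 peaks, those under 500 bp had the highest median in the upper 4 quintiles. In the strongest quintile the 68 peaks under 500 bp had a median departure of 0.91, against -0.09 for 1743 peaks of 500 bp to under 1 kb, -0.26 for 3419 of 1 to under 2 kb and -0.20 for 544 broader ones. Of those 68 narrow, strong peaks, 11 were called higher (16.2%) and 0 lower in the authors' deposited table, beside 1.21% and 5.81% of all peaks. The mean level includes the TDCIPP level, so a narrow peak can be among the 68 through a high TDCIPP level. By DMSO level too, the 47 narrow peaks of the strongest quintile lay above the median, at 0.57, against -0.36 to -0.28 for the wider classes. Of these 47, however, 2 were called higher and 2 lower in the authors' deposited table. In the weaker quintiles the order by width depended on which level the peaks were matched on.

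**Figure D2:**
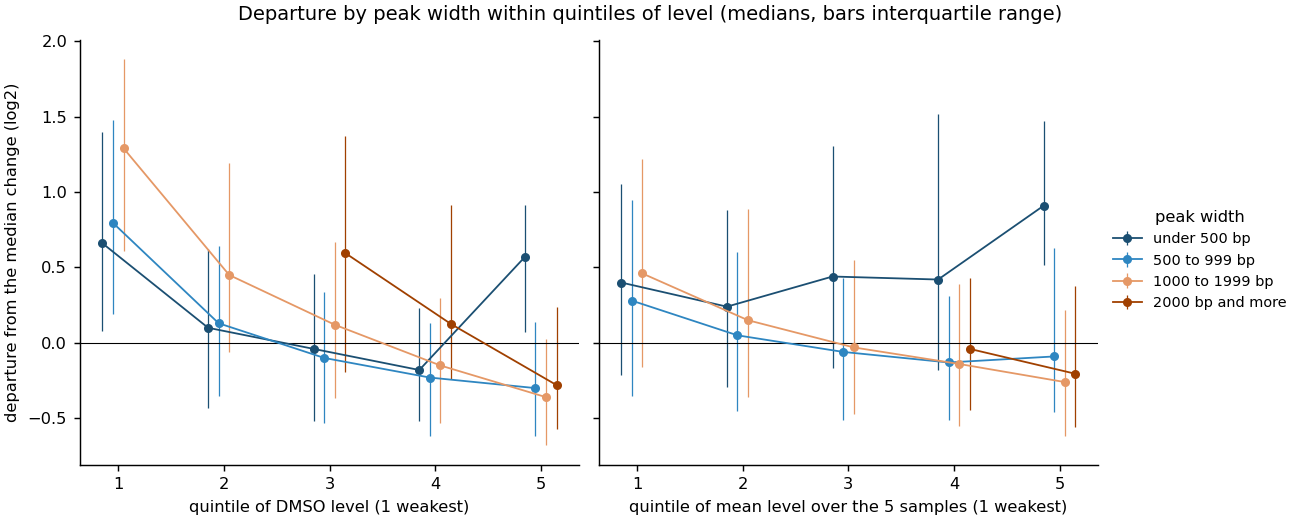
Median departure from the median H2A.Z change (log2) for 4 classes of peak width within quintiles of DMSO level (left) and of mean level (right), with bars for the interquartile range and classes under 20 peaks left out. Peaks under 500 bp in the strongest quintile of mean level stand at 0.91, above the wider classes, which lie between -0.26 and -0.09.

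Peaks off the assembled chromosomes lay above the median change. Zebrafish has many alternate-locus sequences, which hold other versions of stretches already present on a chromosome, and unplaced sequences, which could not be assigned to one. On the 25 assembled chromosomes 23935 peaks had a median change of -0.56 and a departure of -0.03. On 878 alternate-locus sequences 4616 peaks had -0.38 and 0.15, and on 282 unplaced sequences 437 peaks had -0.14 and 0.39. Departing-up shares followed this order, at 14.98%, 19.9% and 25.2%, while departing-down shares were 7.42%, 7.08% and 4.58%. Lower calls in the authors' deposited table made up 6.31%, 3.44% and 3.66% of the peaks, and higher calls 1.14%, 1.58% and 1.37%. Over the peaks with an FDR under 1, the shares in that table were 10.5%, 6.49% and 5.65% for lower calls and 1.89%, 2.98% and 2.12% for higher calls.

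The same order of the classes was seen in the steps of mean level from 2 to under 6, and not in the others. From a mean level of 4 to under 5, the median departure was -0.22 on the assembled chromosomes other than chromosome 4, 0.03 on alternate-locus sequences and 0.27 on unplaced ones. Between 5 and 6 it was -0.29, 0.06 and 0.14. It was also spread over many sequences: 583 of 878 alternate-locus sequences (66.4%) and 182 of 282 unplaced ones (64.5%) had a median departure above 0, with a median of 4 and 1 peaks per sequence. Grouped by parent chromosome, alternate-locus peaks ranged from -0.10 for chromosome 16 to 0.43 for chromosome 22 and 0.32 for chromosome 1. Reads that fit an alternate locus and its chromosome equally well can be placed on either, and how the authors treated them is not given in the sources used here.

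Among the assembled chromosomes, 24 had median departures within a narrow band and chromosome 4 stood above it. The band ran from -0.12 on chromosome 23 to 0.05 on chromosome 8, with chromosomes 19, 16 and 2 next to the low end at -0.10, -0.09 and -0.09. Neighbours in this order differed by far less than the interquartile ranges, which were about as wide as that of all peaks. Chromosome 4 had a median of 0.20, and 26.5% of its 1078 peaks departed upward, against 18.6% on chromosome 11, the next highest share. Chromosome 23 had the lowest share, 11.2%. Restricted to mean levels of 3 and over, chromosome 4 was again the highest, at 0.11, above -0.04 on chromosomes 8 and 15.

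**Figure D3:**
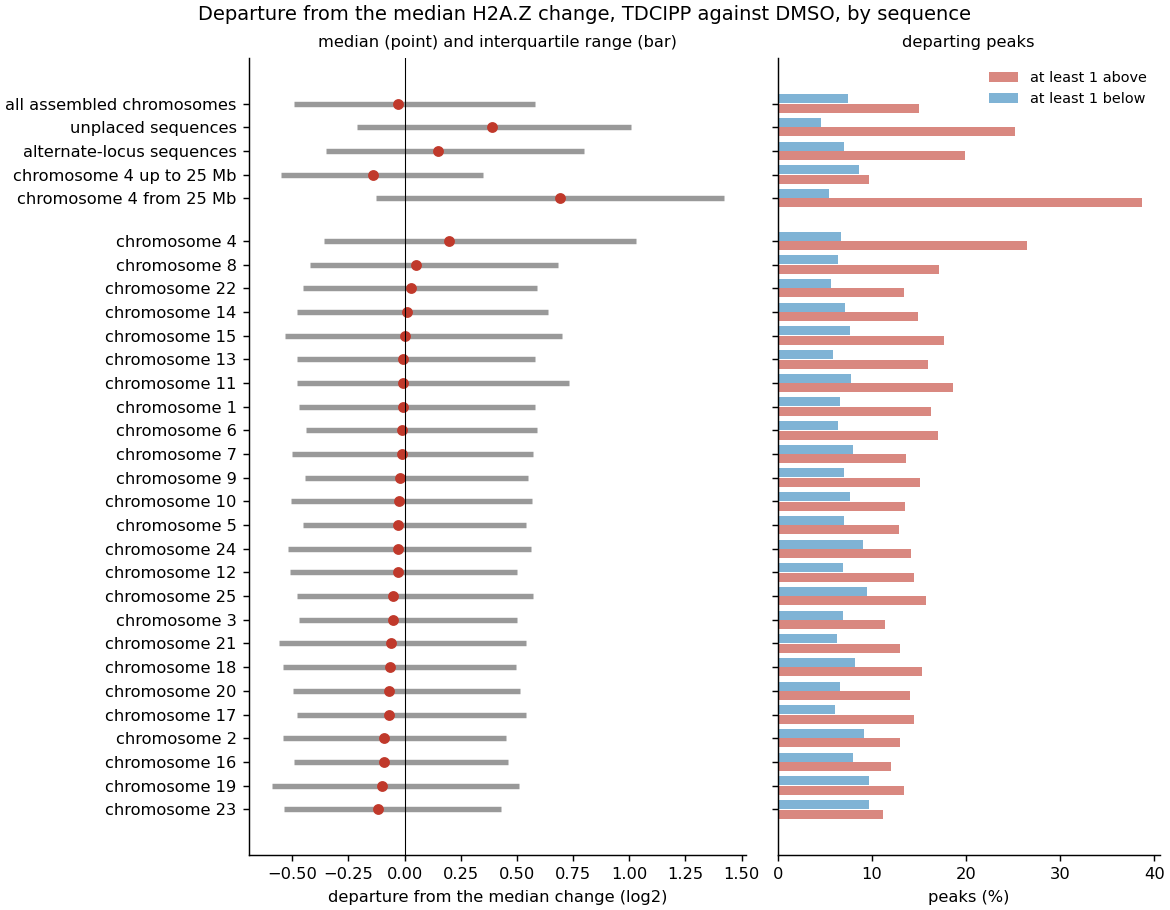
Departure from the median H2A.Z change for each chromosome, for both parts of chromosome 4, and for the sequence classes. Left, median (point) and interquartile range (bar) on the log2 scale; right, the share of peaks at least 1 above or below the median change. Chromosome 4 from 25 Mb stands apart at a median of 0.69, with 38.7% of peaks departing upward.

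The upward departure of chromosome 4 belonged to its long arm, taken here as everything from 25 Mb. Its 626 peaks had a median change of 0.16 and a departure of 0.69, while the 452 peaks before 25 Mb had -0.67 and -0.14. On the long arm 38.7% of peaks departed upward and 5.43% downward, and before it 9.73% and 8.63%. In windows of 5 Mb the medians rose over the windows from 20 to 35 Mb, and the interquartile ranges on either side of the boundary overlapped. The last window before the boundary, 20 to 25 Mb, had a median departure of -0.20, the next had 0.40, and the window from 30 to 35 Mb had 1. The highest was 1.17 over 36 peaks from 60 to 65 Mb, where 63.9% departed upward and 0 downward. The window from 45 to 50 Mb was lower than those around it, with 0.33 and 26.5% departing upward. Toward the end of the chromosome the medians came back to 0.23 from 70 to 75 Mb and 0.06 from 75 Mb on.

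**Figure D4:**
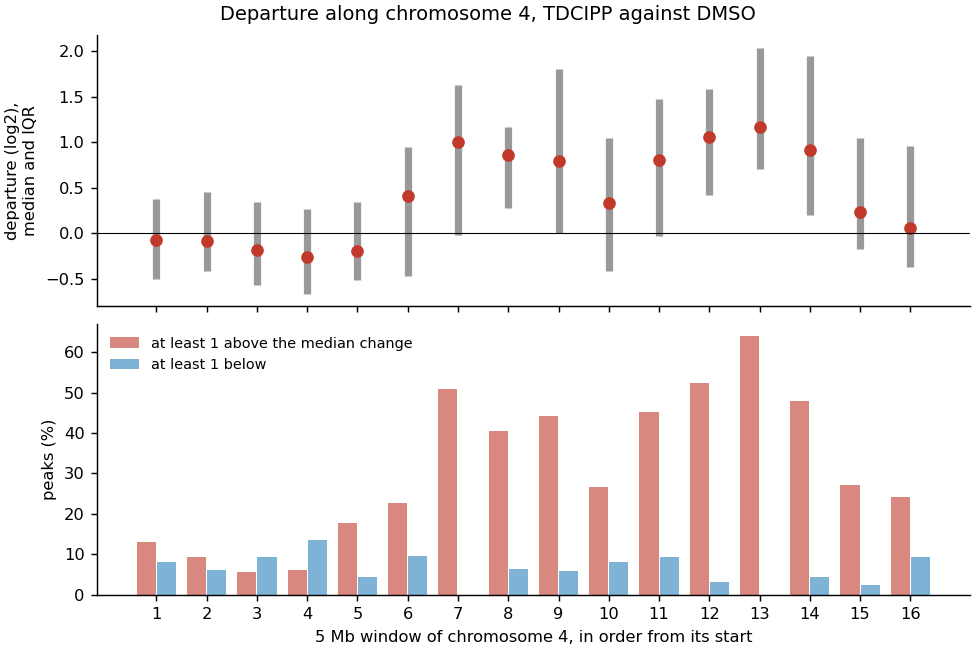
Departure from the median H2A.Z change in successive 5 Mb windows of chromosome 4, with the median and interquartile range in log2 units (top) and the share of departing peaks in percent (bottom). The first 5 windows lie between -0.26 and -0.08, windows 7 to 9 and 11 to 14 between 0.80 and 1.17, and window 10 at 0.33.

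The contrast was present in each step of mean level under 7, above which the long arm had 2 peaks. Long-arm peaks were weaker, with a median DMSO level of 3 against 3.72 on the other assembled chromosomes. Between mean levels of 3 and 4 their median departure was 0.61 (189 peaks) against -0.04 on the other assembled chromosomes (7690 peaks), and between 4 and 5 it was 0.84 (100 peaks) against -0.22 (5741 peaks). Few of these peaks passed the deposited test. On the long arm the authors' deposited table had 14 higher calls (2.24%) and 10 lower calls (1.60%), against 1.12% and 6.41% on the other assembled chromosomes. Over the peaks with an FDR under 1 in that table, 5.30% of 264 on the long arm were higher and 3.79% lower, against 1.84% and 10.5% of 13895 on the other assembled chromosomes. Of those 264 peaks 42.0% departed upward, beside 38.7% of all long-arm peaks, so this subset leaned slightly more upward.

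In windows of 1 Mb with at least 8 peaks, medians far above that of all peaks occurred and medians as far below did not. Of 1265 such windows, 36 had a median departure of at least 1, and 0 had one of -1 or less, the lowest being -0.75. The long arm of chromosome 4 held 46 of the windows and 16 of those 36. The other 20 lay elsewhere, and the highest of them were on chromosome 15 from 9 to 10 Mb, with 2.23 over 59 peaks, and from 7 to 8 Mb, with 1.72 over 28 peaks. The window on chromosome 8 from 34 to 35 Mb had 1.505 over 50 peaks. Windows on chromosome 14 from 19 to 20 Mb and chromosome 1 from 21 to 22 Mb stood at 1.5, with 11 and 13 peaks, yet held 1 and 0 higher calls in the authors' deposited table.

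Departures of adjacent peaks were more alike the closer the peaks lay. On the assembled chromosomes, Spearman's rho between the departures of adjacent peaks was 0.32 for 616 pairs under 2 kb apart, 0.30 for 4493 pairs at 2 to 10 kb, 0.11 for 10610 pairs at 10 to 50 kb and 0.05 for 1134 pairs 200 kb or more apart. With the runs of higher calls, described next, left out, the first 2 values were 0.29 and 0.25. These correlations are across peaks of the same 5 libraries and describe the table only. Counts of departing peaks are therefore not counts of independent events.

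Higher calls that lay in runs of neighbouring calls were stronger and wider than those that did not. Merging higher calls at most 100 kb apart gave 194 loci, of which 156 held 1 call and 9 held at least 5. These 9 runs contained 126 of the 352 calls (35.8%). Inside the runs the called peaks were strong and wide, with a median DMSO level of 5.79, a TDCIPP level of 7.35 and a width of 1146 bp. The 226 calls elsewhere were weaker and narrower, with 2.96, 4.88 and 583 bp, and 71 of them (31.4%) were under 500 bp, against 3 of 126 in the runs. Median departures were 2.02 and 2.36. In the runs the called peaks, chosen for this rise, went from 1.52% of the summed signal in DMSO to 5.44% in TDCIPP. Outside them 26.5% of higher calls lay on alternate-locus sequences, beside 20.7% of all higher calls and 15.9% of all peaks. These sequences held a median of 4 peaks, so many could not hold a run of at least 5 calls. Leaving out the runs therefore raises their share.

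Of the 164 peaks inside the 9 runs, called or not, 147 departed upward, 16 lay within 1 of the median and 1 departed downward. The runs were chosen for their calls, so these counts are a description. The run with the most calls lay on chromosome 15 from 9634972 to 9876404. It held 48 peaks with DMSO levels from 3.69 to 6.32 and TDCIPP levels from 4.59 to 7.70, and all 48 had a change above 0. Their departures had an interquartile range of 2.05 to 2.66. Those within 60 kb of the centre had a median of 2.61 (23 peaks) and those farther out 2.23 (25 peaks). The 3 peaks within 100 kb outside the run, 1 of them departing upward, had medians of 0.21 on one side (1 peak) and 0.47 on the other (2 peaks). The smallest FDR of the run in the authors' deposited table, 5.08e-07, belonged to a 603 bp peak from 9786263 to 9786866, with levels of 7.32 in TDCIPP and 4.83 in DMSO.

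The second run of chromosome 15, from 7197143 to 7280801, was narrower in extent. All 18 of its peaks departed upward, by 1.18 to 2.86, from DMSO levels of 4.80 to 6.70 to TDCIPP levels of 5.86 to 7.94. The 10 peaks of a run on chromosome 13 from 25318122 to 25361484 departed by 1.62 to 2.07. The 7 peaks within 100 kb outside that run, 1 of them departing upward, had medians of -0.34 on the left and -0.08 on the right. In a 33.5 kb run on chromosome 18 from 30031782 to 30065256, 11 of 11 peaks departed upward, between 1.27 and 1.86, and 7 of them were called higher in the authors' deposited table. Of the 3 peaks within 100 kb to its right, the nearer ones had departures of 1.48 and 1.52 and the farthest -0.55, and the 4 to its left had a median of -0.23.

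The runs on chromosome 8 were mixed. Between 34434195 and 34726803, 20 of 28 peaks departed upward, by 1.42 to 2.19, and the other 8 lay between -0.28 and 0.90, all within 292.6 kb. The departing ones were stronger in DMSO, with a median level of 6.87 against 5.46. An alternate-locus sequence of chromosome 8 showed the same split, with 14 of 17 peaks departing upward by 1.01 to 2.33 and the other 3 between -0.49 and 0.08. Whether it is another version of the same stretch was not tested, so its 13 calls may not be separate from those on the chromosome. From 30838639 to 30910312, 10 of 12 peaks departed upward, but 1, called lower in the authors' deposited table, had a departure of -2.07. Another run of this chromosome, from 34921477 to 35033644, had 9 peaks with a median departure of 1.88, and the run on chromosome 11 from 31058848 to 31105854 had 11 peaks with 1.48. Within 100 kb of the chromosome 11 run 5 peaks departed upward, with medians of 0.20 on the left (3 peaks) and 1.14 on the right (6 peaks). To the right of the runs on chromosome 8 itself, in order of position, the medians were 0.105 (6 peaks), 0.635 (8 peaks) and 0.595 (4 peaks).

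**Figure D5:**
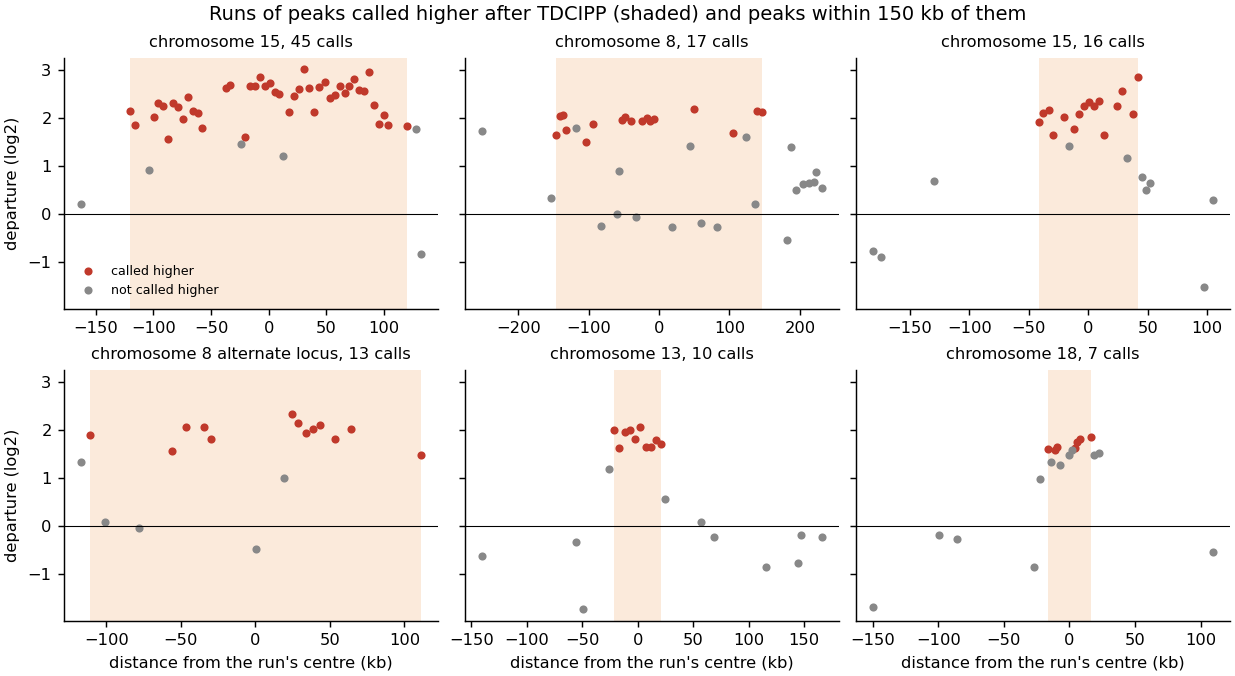
Departure from the median H2A.Z change (log2) of single peaks against their distance in kb from the centre of the 6 runs with the most higher calls, with peaks within 150 kb on either side. Red peaks were called higher at a deposited FDR under 0.05, grey ones were not, and the shaded span is the run. In the run with 45 calls all 48 peaks lie at 0.92 or above, while in the run of chromosome 8 with 17 calls 8 grey peaks lie between -0.28 and 0.90.

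The 5-AzaC table, which shares the DMSO samples and was made from 3 samples in 100 µM 5-AzaC, gave other values in these runs. Its median change was -0.70 over 29854 peaks, with 90 higher calls (0.301%) and 3739 lower calls (12.5%) in the authors' deposited table. Over the 45 peaks inside the largest run of chromosome 15, departures from that median had a median of 0.12 and ran from -0.48 to 0.68, and 9 of the peaks were called lower. Across the 9 runs, which held 7 to 45 peaks of that comparison each, the median departure in 5-AzaC lay between -0.24 and 0.17. Higher calls numbered 0, but with only 0.301% of all its peaks called higher, that count says little about the runs. Each run held between 1 and 9 lower calls. In that comparison strong peaks were called lower more often than the 12.5% of all peaks. The share was 48.3% at DMSO levels of 5 to under 6 and 69.3% from 6 to under 7, by the authors' deposited FDR. The largest run had a median DMSO level of 5.275 in the TDCIPP comparison. Its share of lower calls, 9 of 45, was below that of peaks from 5 to under 6. Their median departure in 5-AzaC was -0.22, beside 0.12 in the run. The long arm of chromosome 4 had a median departure of 0.29 in 5-AzaC beside 0.69 in TDCIPP. Unplaced sequences had 0.17 beside 0.39, and alternate-locus sequences -0.09 beside 0.15. Peaks with a DMSO level of 8 and over had 1.21 beside 0.65. On the long arm 27.4% of peaks departed upward in 5-AzaC against 8.29% of all, and 38.7% against 15.9% in TDCIPP. Medians in 5-AzaC also fell with width, from 0.27 under 500 bp to -0.18 at 2 kb and more. By DMSO level they fell from 1.80 under 1 to -0.25 from 6 to under 7. The difference between the treatments was not tested.

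Calls that departed downward were scattered. The 863 such calls fell into 775 loci, 700 of them with 1 call, and 1 run held 5 of the calls. They had a median DMSO level of 4.74, a TDCIPP level of 2.95 and a width of 1036 bp, and 85.9% lay on assembled chromosomes, against 82.6% of all peaks. The long arm of chromosome 4 held 7 of them (0.811%), beside 2.16% of all peaks. The run lay on chromosome 15 from 20253953 to 20467865 and had 6 peaks spread over 213.9 kb, with departures from -2.42 to -1. Their DMSO levels were 3.56 to 4.58 and their TDCIPP levels 1.18 to 2.68. The run was chosen for calls that departed downward, so lower TDCIPP levels at the called peaks follow from that choice. In 5-AzaC the same 6 peaks had a median departure of -0.70, and 3 were called lower in the authors' deposited table, where 12.5% of all peaks were. Both comparisons use the same DMSO libraries, so an error in the DMSO level moves both values.

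Single peaks at the extremes were named among calls with a level of at least 4 in either group, the 10 with the largest departure in each direction. The 10 above had DMSO levels of -0.05 to 2.85 and TDCIPP levels of 4.37 to 5.57, and were 292 to 1244 bp wide. Such DMSO levels are at most 7.21 normalised reads, which makes the size of these departures imprecise. The first of the 10 peaks, on chromosome 6 from 31721198 to 31721716, went from 0.966 normalised reads in DMSO to 23.9 in TDCIPP and departed by 5.16. A peak on chromosome 8 from 45766953 to 45768197 departed by 3.80, with levels of 4.57 and 1.3, while its 1 neighbour within 10 kb departed by -0.17. On chromosome 13 from 4284580 to 4285064 the departure was 3.66, with levels of 4.79 and 1.66, and the 1 neighbour within 10 kb also lay high, at 2.61. Others lay on chromosome 7 from 66941174 to 66941827 (3.65), chromosome 11 from 12593549 to 12593841 (3.43) and chromosome 6 from 60191318 to 60192055 (3.29). The remaining 4 lay on alternate-locus sequences of chromosomes 8, 9, 18 and 23 and departed by 3.25 to 3.65. The authors' deposited table gave the 10 peaks FDRs of 0.000376 to 0.022.

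The 10 below were wider, from 558 to 1263 bp, and went from DMSO levels of 4.05 to 5.57 to TDCIPP levels of -0.81 to 1.33. Such TDCIPP levels are at most 2.51 normalised reads, which makes the size of these departures imprecise. The extreme was on chromosome 4 from 57642068 to 57643331, with a departure of -4.34, inside the arm whose other peaks mostly lay above the median. The peak on chromosome 23 from 5604584 to 5605430 went from 5.57 to 1.33 and had the smallest FDR in the authors' deposited table, 6.63e-09. Its 1 neighbour within 10 kb departed by 0.02. Peaks on chromosome 7 from 50447845 to 50448403 and from 25858343 to 25859305 departed by -3.80 and -3.31, one on chromosome 21 from 45502880 to 45503741 by -3.00 and one on chromosome 19 from 18503188 to 18504183 by -2.95. The other 4 lay on an unplaced sequence (-4.19) and on alternate-locus sequences of chromosomes 4, 13 and 23 (-3.36, -3.08 and -2.90). Of the 5 peaks with a neighbour within 10 kb, 4 had that neighbour above the median change.

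In 5-AzaC all 10 of the lower peaks had a matching peak, and each had a departure below 0 there, from -1.46 to -0.30. Of these matches 5 were called lower in the authors' deposited table of 5-AzaC. By that table, lower calls made up 12.5% of all peaks and higher calls 0.301%. Among peaks with a DMSO level of 4 to under 5, 18.8% were called lower, and from 5 to under 6, 48.3%. The 10 lower peaks had DMSO levels of 4.05 to 5.57 in the TDCIPP comparison. Of the 10 higher peaks 7 had a match, with departures of 0.92 to 2.27, and none of these was called in the authors' deposited table of 5-AzaC. Most of these 7 had no FDR under 1 there, while all 10 matches of the lower peaks had one. The counts of calls in each direction can therefore not be compared. Both sets of values use the same DMSO libraries, so a DMSO level that is high or low by error moves them in the same direction.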

How the data were processed

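H2A.Z CUT&Tag tables of 2 TDCIPP and 3 DMSO samples, and of 3 5-AzaC and the same DMSO samples, were analysed, with groups taken from sample titles. The other 6 of the 14 samples were not analysed here. Bowtie2, Picard, MACS2, deepTools and DiffBind are named, without role or version, and GRCz11 as the build, per the submitters' processing notes. Per the file headers, the authors deposited for each consensus peak a log2 level over all samples and per group, a log2 change, a p-value and an FDR. The scaling and test behind the deposited p-value are not given in the sources used here. Averaging both group levels on the linear scale, with weights of 2 and 3 samples, gave back the overall level within 0.02 for 100% of peaks, so levels were read as log2 mean normalised reads. No table holds a value of a single sample, so depth, a mean ± SD and a test of departures could not be had, and the deposited FDR took the place of a count model. All peaks were used without a filter.

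Change was computed as the difference of the group levels, within 0.01 of the deposited change, and summarised with Python 3.11.15, pandas 2.3.3 and numpy 2.4.6. The median change, the grouping by chromosome and the merging into runs were tested on simulated data. Steps of level, width classes and sequence classes were not. Widths are end minus start. Whether starts count from 0 or 1 is not stated. The 5-AzaC peak with the largest overlap, of at least 1 bp, was taken as the match of a named peak. Gene, promoter and repeat annotation and the gene lists were not used here, because the reference at hand is of another build. The members, groupings, thresholds and alternatives were chosen with earlier results of these data known. Named peaks are the 10 calls in each direction with the largest departure among those with a level of at least 4 in either group. The distance of 60 kb inside runs, the 1 Mb windows and the shares over peaks with an FDR under 1 were chosen after their values were seen.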

Additional observations from a re-analysis of the deposited data

How the results depend on the processing

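No paired analysis was possible because each table gives a single level per group. Leaving out each replicate and a replicate block were not run for the same reason, and the promoter and gene list alternatives were not run because no annotation of the build was at hand. Lower calls numbered 305 at a deposited FDR under 0.01, 3167 under 0.1 and 863 when a departure of at least 1 was also asked. Higher calls numbered 121 and 581 at those FDRs. With a Benjamini-Hochberg adjustment of the deposited p-values over all peaks, lower calls numbered 1134 (1685 in the report) and higher calls 295 (352 in the report). The median change was -0.66 above the median mean level, -0.56 on assembled chromosomes and -0.36 as the log2 ratio of summed levels. Departing-up peaks numbered 8485 at a threshold of 0.5, 1057 at 2 and 2480 at a mean level of at least 3, and departing-down peaks 6870, 223 and 1364. Centring on the ratio of summed levels gave 3281 departing-down peaks, nearly as many as the 3651 departing up, so the ratio of upward to downward departures depends on the centre. At a mean level of at least 3 the median departures were -0.13 on assembled chromosomes, 0.08 on alternate-locus and 0.30 on unplaced sequences, and 0.11 on chromosome 4. Centring within steps of mean level moved the long arm of chromosome 4 to 0.52 (0.69 in the report). For peaks under 500 bp the median was 0.15 within quintiles of mean level and 0.34 with a pseudocount of 1. For peaks of 2 kb and more it turned to 0.015 within quintiles of mean level. Ranked by mean level, peaks under 2 had 0.49 and peaks from 5 to 7 had -0.20, beside 1.18 and -0.36 by DMSO level. Ranked by TDCIPP level the signs turned, to -0.46 and 0.60, and peaks of 8 and over had 0.81. The TDCIPP level enters the change with the opposite sign. With calls merged at 10 kb, 0 runs of lower calls remained, and 6 of higher calls. Centring within steps of mean level for classes, the TDCIPP ranking, the boundary at 30 Mb and the pseudocount for classes and widths were added after the values were seen. The cause was not tested for any of these shifts. The depth of the libraries is unknown.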
